A study of Mus musculus with 14 samples.

Results

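The acetylation of lysine 27 on histone H3 (H3K27ac) was compared between mouse embryonic stem cells of the E14 line after doxorubicin and after its vehicle. The series holds 14 ChIP-seq libraries in 7 groups of 2, of which the 4 H3K27ac libraries, 2 per treatment, are described here. The doxorubicin group received 1 µM of the drug for 6 h and the vehicle group received DMSO for 6 h, both then spent 6 h in fresh medium without drug, and all cells were fixed 12 h after the start with 1% formaldehyde for 10 min. Both groups were grown on gelatin with LIF and the inhibitors PD0325901 and CHIR99021 and carry no other difference that the labels give. For comparison, lists of H3K9me3 in the same treatments, of p53 pulled down through its HA tag, of the HA antibody in untagged cells and of input chromatin after doxorubicin were used. The labels do not say how the tag was introduced, nor give the treatment of the HA groups in their titles. The authors pooled the 2 libraries of a group before calling peaks, so there is 1 value per locus and treatment, no replicate check and no test. The fold intervals below are exact 95% intervals for the counting of fragments only.

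Each entry of a peak list is a summit, and summits with the same chromosome, start and end were joined into 1 region that took the highest pileup, the number of fragments stacked at the summit. Pileups were divided by the number of fragments left after filtering in that list and are given per 1000000 such fragments (FPM). Regions of the 2 lists that overlapped by at least 1 bp were joined into a locus. Of 82177 vehicle and 112259 doxorubicin regions, 53618 loci were shared, 52232 were listed after doxorubicin only and 23695 in vehicle only. The ratio of a shared locus is its pileup in FPM after doxorubicin over that in vehicle, and "higher" or "lower" below means by at least 1.5-fold.

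H3K27ac is deposited by the acetyltransferases p300 and CBP on nucleosomes that flank active promoters and enhancers, and is removed by histone deacetylases. It is read by bromodomain proteins and marks the regulatory elements in use in a given cell type. Doxorubicin intercalates into DNA, traps topoisomerase II on cleaved DNA and can displace histones. The breaks activate the kinases Atm and Atr, which stabilise p53, a transcription factor that binds a pair of decamers and recruits acetyltransferases to genes of cell cycle arrest, cell death and DNA repair. Mouse embryonic stem cells keep an open chromatin built around Pou5f1, Sox2 and Nanog and divide rapidly.

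The promoters below show what a p53 binding sequence looks like within loci whose H3K27ac was measured in both treatments. They are the 250 bases before an annotated start, 5′ to 3′ on the strand of the gene, from RefSeq on GRCm38.p6, the assembly behind mm10. Capitals mark a full p53 site of 20 bases, made of both decamers without a spacer, with at most 2 mismatches and with the C and G of each decamer intact. The first 5 lie at loci with more H3K27ac after doxorubicin than in vehicle, in rising order of the ratio, and the last at a ribosomal protein gene with less. All 6 sites lie within a p53 region of the HA ChIP.
Cdkn1a, chr17:29090729-29090978, plus strand: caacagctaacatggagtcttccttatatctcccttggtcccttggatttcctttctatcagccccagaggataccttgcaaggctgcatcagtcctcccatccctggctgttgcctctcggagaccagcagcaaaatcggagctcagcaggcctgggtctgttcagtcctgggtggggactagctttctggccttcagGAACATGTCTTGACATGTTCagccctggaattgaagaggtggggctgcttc
Ccng1, chr11:40755287-40755536, minus strand: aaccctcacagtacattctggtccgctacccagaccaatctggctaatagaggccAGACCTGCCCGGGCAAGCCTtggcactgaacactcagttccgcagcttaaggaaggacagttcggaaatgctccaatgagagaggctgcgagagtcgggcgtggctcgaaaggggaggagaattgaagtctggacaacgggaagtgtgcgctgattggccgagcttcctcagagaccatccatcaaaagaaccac
Rps27l, chr9:66946163-66946412, plus strand: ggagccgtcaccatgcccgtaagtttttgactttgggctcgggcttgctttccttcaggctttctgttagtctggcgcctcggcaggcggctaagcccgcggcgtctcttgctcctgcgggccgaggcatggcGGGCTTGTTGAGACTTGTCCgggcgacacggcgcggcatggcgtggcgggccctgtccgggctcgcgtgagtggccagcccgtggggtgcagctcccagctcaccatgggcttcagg
Zfp365, chr10:67912663-67912912, minus strand: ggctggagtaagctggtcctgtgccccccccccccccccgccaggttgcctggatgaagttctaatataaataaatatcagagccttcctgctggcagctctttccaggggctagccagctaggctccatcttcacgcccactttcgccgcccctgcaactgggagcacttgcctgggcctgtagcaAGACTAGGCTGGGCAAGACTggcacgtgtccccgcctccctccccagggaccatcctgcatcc
Mst1, chr9:108080186-108080435, plus strand: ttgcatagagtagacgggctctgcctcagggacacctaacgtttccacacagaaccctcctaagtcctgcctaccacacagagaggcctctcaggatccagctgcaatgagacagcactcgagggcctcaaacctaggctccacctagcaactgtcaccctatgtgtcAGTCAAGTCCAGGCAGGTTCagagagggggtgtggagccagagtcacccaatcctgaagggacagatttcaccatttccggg
Rps19, chr7:24884663-24884912, plus strand: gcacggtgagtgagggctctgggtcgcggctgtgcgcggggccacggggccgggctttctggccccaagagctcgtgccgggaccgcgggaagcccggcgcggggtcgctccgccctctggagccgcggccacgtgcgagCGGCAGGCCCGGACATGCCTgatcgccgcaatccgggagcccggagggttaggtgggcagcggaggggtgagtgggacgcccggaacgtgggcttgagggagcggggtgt

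At the locus of the Cdkn1a site, 51 bases before the start, the pileup was 6.05 FPM in vehicle and 6.75 after doxorubicin. Cdkn1a encodes the cell cycle inhibitor p21. At Ccng1, which encodes cyclin G1, the site lies 195 bases before the start and the pileup was 8.09 and 10.9 FPM. Both loci were far above the median of shared loci, 0.872 FPM, already in vehicle. Rps27l, a p53-responsive relative of a ribosomal protein gene, had 5.81 and 9.10 FPM and a ratio of 1.57. Zfp365 had 1.02 and 2.52 FPM, a ratio of 2.48. Mst1 had 1.11 and 3.40 FPM, a ratio of 3.06. The largest ratios of the 5 were at the 2 promoters with the least vehicle signal, which is the value that divides the ratio. Other promoters with a site and a similar vehicle signal differed, such as Ms4a10, with 1.16 FPM and a ratio of 0.96, and Gm1600, with 1.07 FPM and 2.64. Rps19, with a site 110 bases before its start, went the other way, from 11.3 to 8.57 FPM. The shares of promoters with such a site are given with the promoter results below.

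The lists differed in depth and size. The vehicle list rested on 20647895 fragments with a mean length of 264 bp and the doxorubicin list on 17036528 of 270 bp. The lowest pileup listed was 9 fragments in vehicle, 0.436 FPM, and 8 after doxorubicin, 0.470 FPM, so the shallower list does not reach lower levels. The doxorubicin list nevertheless held more regions, which covered 107.6 Mb against 88.4 Mb, with median lengths of 605 and 634 bp. At a pileup of at least 1 FPM, 33888 regions were listed after doxorubicin and 25053 in vehicle. Markers of embryonic stem cells were all listed in both treatments (10 of 10), with pileups that summed to 56.8 FPM in vehicle and 48.2 after doxorubicin. Of 10 fibroblast markers, 2 were listed in both treatments and 2 after doxorubicin only, with sums of 1.45 and 2.76, and Col1a2, Col3a1, Dcn, Lum, Postn and Twist1 had no region in either. The sums of 8 primitive endoderm markers were 2.23 and 2.99, and those of 8 trophoblast markers 3.78 and 4.52.

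At the 53618 shared loci the median pileup was 0.872 FPM in vehicle and 1.06 after doxorubicin, a median log2 ratio of 0.16. Higher loci numbered 13911, 25.9% of the shared loci, and lower loci 5686, 10.6%. This balance depends on the scale. With the authors' fold enrichments in place of pileups, the median log2 ratio was -0.02, and 9047 loci were higher and 8740 lower. Medians and counts of sets are therefore given with those of all shared loci or all genes, while the ratios of single genes are those of the scaling by depth. When the shared loci were put into 5 groups of about equal size by their mean level, the median log2 ratio was 0.15 in the lowest, then 0.28, 0.21 and 0.18, and -0.01 in the highest. At the highest levels 24.1% were higher and 16.1% lower, so the group with a median near 0 held changes in both directions.

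Loci with their highest summit within 1000 bp of a gene end had a median log2 ratio of 0.05, those elsewhere within a gene 0.28 and those outside genes 0.09. Near gene ends 19.7% of 12118 loci were higher, against 30.6% of 26901 within genes and 22.6% of 14479 outside. Loci outside genes were the most often lower, 14.2%, against 8.36% within genes and 11.3% at gene ends. Among loci without a p53 region, those with a summit within 250 bp of an annotated start had a median log2 ratio of -0.04, those at 251 to 1000 bp 0.04 and those at 1001 to 5000 bp 0.14. Loci that overlapped a vehicle H3K9me3 region, 5794 in number, had a median of -0.01, with 23.5% higher and 19% lower.

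Loci that overlapped a p53 region stood apart. Overlap was taken on the joined span of a locus in both lists, so a locus longer in 1 list could meet one more easily. The 4546 shared loci with a p53 region had a median pileup of 0.969 FPM in vehicle and 2.11 after doxorubicin, and a median log2 ratio of 1.01. Of these loci 76.8% were higher and 0.836% lower, against the 25.9% and 10.6% of all shared loci. The 49072 loci without a p53 region had a median log2 ratio of 0.11, with 21.2% higher and 11.5% lower. Vehicle levels were similar in both sets, 0.969 and 0.872 FPM. Within the 5 groups of mean level, the medians with and without a p53 region were 0.52 and 0.15 in the lowest, 0.78 and 0.23, 1.09 and 0.19, 1.23 and 0.07, and 0.92 and -0.13 in the highest. A locus of the highest group without a p53 region was more often lower (19.2%) than higher (14%). The groups were made from the mean of both treatments, which enter the ratio, so vehicle levels were not matched within them. In the group below the highest, the vehicle medians were 0.872 FPM with a p53 region and 1.36 without.

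**Figure D1:**
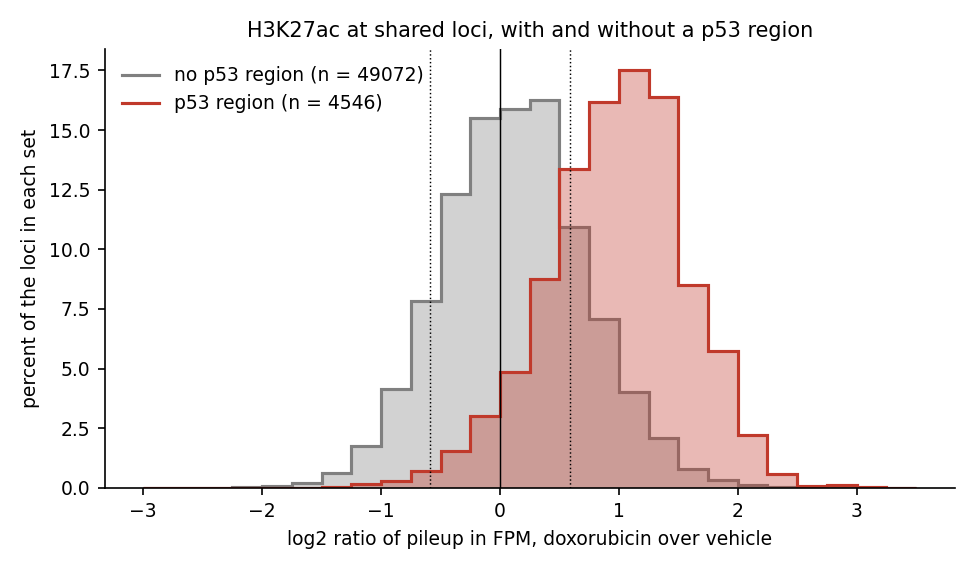
Distribution of the log2 ratio of H3K27ac pileup in FPM, doxorubicin over vehicle (horizontal axis), as the percent of loci in each set (vertical axis), for 4546 shared loci with a p53 region and 49072 without. Dotted lines mark a 1.5-fold change in either direction; the distribution with p53 regions has its median at 1.01 and lies to the right of the other, whose median is 0.11.

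The difference was seen at gene ends, within genes and outside genes. With a p53 region the median log2 ratio was 0.90 at 542 loci near gene ends, 1.09 at 2469 loci within genes and 0.96 at 1525 loci outside genes. Without one the medians were 0.03, 0.18 and 0.01. The median log2 ratio fell off with distance from p53 regions, measured from the same joined span. It was 0.28 at 452 loci that lay 1 to 1000 bp from the nearest p53 region without touching it, 0.24 at 1001 to 5000 bp, 0.15 at 5001 to 20000 bp, 0.13 at 20001 to 100000 bp and 0.03 at more than 100000 bp. When the loci with a p53 region were ordered by the fold enrichment of p53 into 4 groups, the medians were 0.86, 1.01, 1.09 and 1.08 from weakest to strongest.

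The HA background and the input bear on these values. At 289 shared loci with a p53 region that also appears in the untagged HA list, and which is not counted above, the median log2 ratio was 0.23, and at 1463 loci with an untagged region but no p53 region it was 0.07. At 1017 loci with an input region it was 0.21. The heterochromatin mark H3K9me3, treated by the same steps, gave 47376 shared loci with a median log2 ratio of 0.34. Of these 28.4% were higher and 2.81% lower. The 1908 H3K9me3 loci with a p53 region had a median of 0.49 against 0.34 for the others, and 40.4% of them were higher. The H3K9me3 medians at the gaps used for H3K27ac ran from 0.30 to 0.39, and the value beyond 100000 bp was 0.36.

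**Figure D2:**
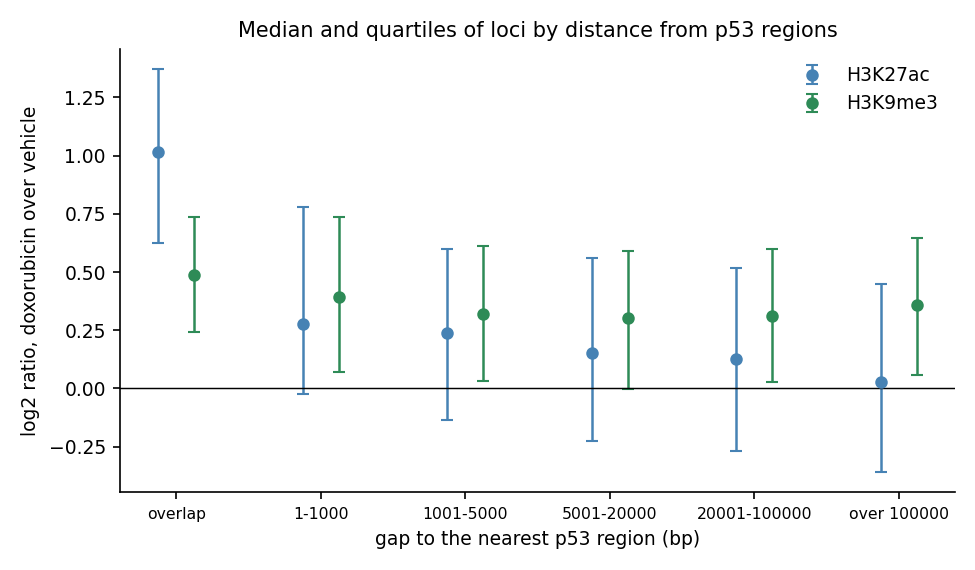
Median log2 ratio of pileup in FPM, doxorubicin over vehicle (points), with the lower and upper quartiles of the loci (bars), by the gap in bp to the nearest p53 region, for shared H3K27ac and H3K9me3 loci. For H3K27ac the median is 1.01 where the locus overlaps a p53 region and 0.03 beyond 100000 bp, while for H3K9me3 the values are 0.49 and 0.36.

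Larger gains came with a larger share of loci with a p53 region. The share was 25.1% of the loci at least 1.5-fold higher, 39.1% of the 5936 at least 2-fold higher, 58.0% of the 1092 at least 3-fold higher and 67.8% of the 202 at least 4-fold higher, against 8.48% of all shared loci. Loci that were lower almost always lacked one. Of 1318 loci at least 2-fold lower 10 had a p53 region, and of 83 at least 3-fold lower none did. Lower loci were also more often outside genes, 40.7% of those at least 2-fold lower against 27.0% of all shared loci and 23.4% of those at least 2-fold higher.

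The length of a shared locus, summed over its regions in a list, changed in both directions. The median length was 880 bp in vehicle and 931 bp after doxorubicin, with a median log2 length ratio of 0.0018. Loci at least 1.5-fold longer made up 21.9% and loci at least 1.5-fold shorter 17.8%. At loci with a p53 region the median length went from 1188.5 to 1981 bp, 47.6% were longer and 1.14% shorter. The overlap was taken on the joined span of both lists, so lengthening itself makes it more likely. How much of the difference this made was not tested. Across the 53618 loci the length and pileup ratios had a Spearman correlation of 0.575, a description only, since both values of a locus come from the same fragments and from a caller whose boundaries depend on depth. Of the higher loci 6813 were also longer and 432 shorter, and of the lower loci 2617 were also shorter and 91 longer. Short vehicle regions lengthened and long ones shrank. By groups of vehicle length, the median log2 length ratio was 0.57, 0.10, -0.08, -0.15 and -0.18 from shortest to longest. The groups were made from the vehicle values, which enter the ratio, and the part of this in the order was not tested.

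Most shared loci kept their position. In 84.4% a single vehicle region met a single doxorubicin region, in 4244 loci a vehicle region was split into several after doxorubicin, and in 3380 several vehicle regions met a single doxorubicin region. The highest summits of the 2 lists lay a median of 101 bp apart, and 65.0% lay within 200 bp. At loci with a p53 region the vehicle summit lay a median of 216 bp from the p53 summit and the doxorubicin summit 204 bp. The share of these summits within 500 bp of the p53 summit was 78.3% in vehicle and 85.3% after doxorubicin.

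Loci listed in 1 treatment were mostly weak. Of 52232 doxorubicin-only loci 8.17% reached 1 FPM, as did 5.51% of 23695 vehicle-only loci, against 60.3% of the shared loci. At 2 FPM 108 doxorubicin-only and 33 vehicle-only loci remained. Among those at 1 FPM or more, 1115 of 4266 doxorubicin-only loci (26.1%) overlapped a p53 region and 0 of 1306 vehicle-only loci did, while the share was 13% of the shared loci at that level. Over loci of any level the shares were 5.99% (Wilson interval 5.79 to 6.20) and 0.186% (0.138 to 0.249). These intervals treat loci as independent and hold no variation between libraries, so they are no test between the treatments. Doxorubicin-only loci lay within genes in 64.5% of cases and vehicle-only loci in 51.2%, while 24.2% and 35.0% lay outside genes.

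Chromosome X differed from the autosomes. Its 878 shared loci had a median log2 ratio of -0.19, with 12.6% higher and 24.8% lower. The 19 autosomes had medians from 0.01 on chromosome 13 to 0.23 on chromosome 8. The median on X was 1.26 FPM in vehicle and 1.17 after doxorubicin. In the 5 groups of mean level the medians on X and on the autosomes were 0.15 and 0.15 in the lowest, -0.0027 and 0.28, -0.14 and 0.21, -0.28 and 0.21, and -0.39 and -0.00017 in the highest. On X the loci outside genes had a median of -0.30, those at gene ends -0.21 and those within genes -0.03. Loci with a p53 region on X, 40 in number, had a median of 0.59, and those without, 838, had -0.22. The 43 shared loci on chromosome Y had a median of -0.26. H3K9me3 showed no such offset, with 0.37 on X and 0.29 to 0.44 on the autosomes. The comparison of X with the autosomes was chosen after its values were seen.

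**Figure D3:**
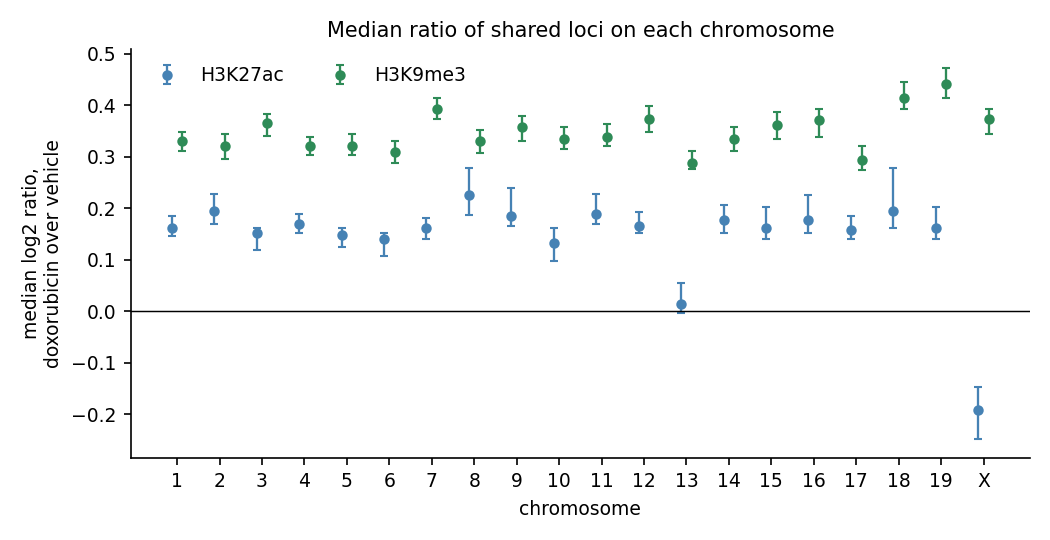
Median log2 ratio of pileup in FPM, doxorubicin over vehicle, over the shared loci of each autosome and of X, with 95% intervals of the median from the order of the values (bars), for H3K27ac and H3K9me3. The bars treat the loci as independent and hold no variation between libraries, so they do not give the precision of a treatment difference. For H3K27ac X lies at -0.19 below the 19 autosomes, which run from 0.01 to 0.23, and for H3K9me3 X lies at 0.37 within the autosomal range.

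Genes were then described by their leading locus, the locus of highest mean level within 1000 bp of either gene end. Of 21896 protein-coding genes, 10498 had a shared leading locus, with a median log2 ratio of 0.02. Of these 2032 genes (19.4%) were higher and 1224 (11.7%) lower. The 698 genes whose leading locus overlapped a p53 region had a median log2 ratio of 0.81, and 467 of them (66.9%) were higher and 1 lower. The 9800 without had a median of -0.01, with 16% higher and 12.5% lower. The 212 genes on X had a median of -0.16, with 13.7% higher and 20.8% lower. Genes with a region after doxorubicin only made up 8% of the protein-coding genes and those with a region in vehicle only 3.67%.

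Over 4 lists of p53 genes, 54 had a shared leading locus, of which 22 were higher and 1 lower. Over all genes 19.4% were higher and 11.7% lower. The median log2 ratio of the 54 was 0.43, against 0.02 for all genes. The 20 with a p53 region at the leading locus all had a ratio above 1. Of these 20, 12 were higher, beside 66.9% of all 698 genes with such a region. Of the 34 without, 10 were higher and 1 lower, with a median of 0.23. Over all genes without one, 16% were higher and 12.5% lower, with a median of -0.01. By role, 7 of 13 genes of cell death were higher, 9 of 16 genes of repair and metabolism, 5 of 15 genes of arrest and growth and 1 of 10 genes of p53 feedback. With fold enrichments in place of pileups these numbers were 6, 7, 1 and 0, and with the ratios centred on the median of the shared loci they were 6, 7, 2 and 0.

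Among death genes, Pmaip1, which encodes the BH3-only protein Noxa, had the largest ratio. Its pileup was 0.63 FPM in vehicle, from 13 fragments, and 3.23 after doxorubicin, from 55 fragments, a ratio of 5.13 (2.77 to 10.2). Apaf1, the core of the apoptosome, went from 2.76 to 6.28 FPM, a ratio of 2.28 (1.63 to 3.20), without a p53 region at that locus. Siva1 had 1.99 and 4.40 FPM. Aen, a p53-induced nuclease, had 6.34 and 11.9 FPM. Bbc3, which encodes Puma, had 8.14 and 10.3 FPM, a ratio of 1.26 (1.02 to 1.57). Bax, an effector of mitochondrial permeabilisation, had 6.39 and 6.93, a ratio of 1.08 (0.84 to 1.40), within counting error of no change. Fas and Perp had regions after doxorubicin only, of 0.705 and 0.939 FPM.

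Among genes of repair and metabolism, Ercc5, an endonuclease of nucleotide excision repair, had 1.21 and 3.82 FPM, a ratio of 3.15 (1.96 to 5.22). Ephx1, a detoxifying epoxide hydrolase, had 2.62 and 6.10 FPM. The translesion polymerase genes Polk and Polh had ratios of 2.18 (1.53 to 3.15) and 1.94 (1.15 to 3.34). Sco2, which serves the assembly of cytochrome c oxidase, had a ratio of 2.00 (1.46 to 2.76). The intervals of these genes exclude 1. Ddb2, Tigar, Xpc and Rrm2b, also known p53 targets, had ratios of 0.94, 0.89, 0.88 and 0.84, each with an interval that included 1. Gpx1, a glutathione peroxidase, had 8.38 and 5.81 FPM, a ratio of 0.69 (0.54 to 0.89).

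Among genes of arrest and growth, Plk2, a polo-like kinase, had 2.42 and 6.16 FPM, a ratio of 2.55 (1.8 to 3.64). Phlda3, an inhibitor of Akt, had a ratio of 1.71 (1.34 to 2.19), Plk3 1.63 (1.33 to 2.00) and Btg2, an antiproliferative factor, 1.58 (1.15 to 2.17). Cdkn1a had a ratio of 1.12 (0.86 to 1.45) in spite of its p53 region, and Sesn1 had 0.73 (0.40 to 1.28). In the feedback list Mdm2, the ubiquitin ligase that degrades p53, had 6.78 and 10.3 FPM, a ratio of 1.51 (1.21 to 1.91). Its relative Mdm4 went the other way, from 2.91 to 1.82 FPM, a ratio of 0.63 (0.39 to 0.98). Trp53 itself had a ratio of 1.13 (0.83 to 1.54).

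**Figure D4:**
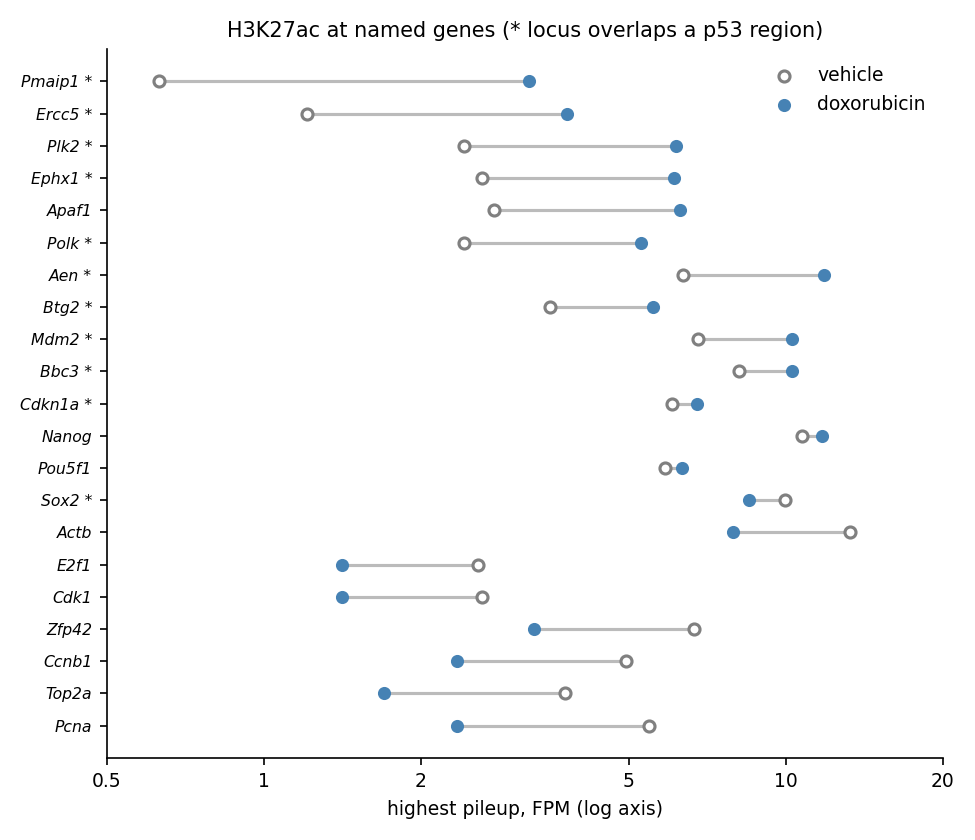
Highest H3K27ac pileup in FPM (log axis) at the leading locus of 21 genes in vehicle (open circles) and after doxorubicin (filled circles), ordered by the ratio; 1 value per treatment from 2 pooled libraries, so no error bars are drawn. The p53 target gene Pmaip1, at the top, has 0.63 and 3.23 FPM, and the replication factor gene Pcna, at the bottom, 5.47 and 2.35.

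Of 27 cell cycle genes with a shared leading locus, 12 were lower and 1 higher, beside 11.7% lower and 19.4% higher over all genes. Their median log2 ratio was -0.54, against 0.02 for all genes. It lay between -0.71 and -0.50 under the other scalings and was -0.34, with 10 genes lower, when loci up to 5000 bp from a gene end were taken. Pcna, the sliding clamp of replication, had 5.47 and 2.35 FPM, a ratio of 0.43 (0.29 to 0.62). Ccnb1, the mitotic cyclin, had 4.94 and 2.35 FPM, a ratio of 0.48 (0.32 to 0.69), and its kinase Cdk1 0.54 (0.32 to 0.89). Ccne1, the cyclin of S phase entry, had a ratio of 0.43 (0.21 to 0.82). The helicase subunit genes Mcm5 and Mcm6 had 0.60 (0.44 to 0.82) and 0.51 (0.32 to 0.81), whereas Mcm2 had 0.80 (0.58 to 1.08). E2f1, a transcription factor of replication genes, had 2.57 and 1.41 FPM. The higher gene was Rb1, the retinoblastoma protein that restrains E2f factors, with 0.581 and 1.94 FPM, a ratio of 3.33 (1.68 to 7.09). Cdkn2b, an inhibitor of Cdk4, had a region after doxorubicin only, of 2.05 FPM. Cdkn1b, another inhibitor of cyclin-dependent kinases, was lower, 5.09 and 3.05 FPM.

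In the core list 4 of 17 genes were higher and 3 lower, with a median log2 ratio of -0.09, beside 19.4% higher, 11.7% lower and 0.02 over all genes. Nanog had 10.8 and 11.7 FPM, a ratio of 1.09 (0.90 to 1.33), Pou5f1 5.86 and 6.34, and Sox2 9.98 and 8.51, a ratio of 0.85 (0.68 to 1.06). The values of these 3 factors lay within counting error of no change. Fgf4, a growth factor that primes cells for differentiation, had 6.01 and 10.2 FPM, a ratio of 1.69 (1.33 to 2.15). Zfp42 (Rex1) had 6.68 and 3.29 FPM, a ratio of 0.49 (0.35 to 0.68), and Prdm14 2.57 and 1.23, a ratio of 0.48 (0.28 to 0.81). In the list of the naive state and the response to the inhibitors, 13 of 15 genes had a ratio below 1, 4 were lower and 2 higher, with a median of -0.39. Tcl1, Spic and Zfp704 had ratios of 0.47 (0.27 to 0.79), 0.50 (0.33 to 0.76) and 0.34 (0.22 to 0.53). Tfcp2l1 and Stat3, both effectors of LIF, had 0.65 and 0.67. The exceptions were Klf5, with 3.15 and 5.81 FPM, and Esrrb, with 0.872 and 2.00. Klf2 had 14.04 and 12.7 FPM, in a domain that also holds Eps15l1.

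**Figure D5:**
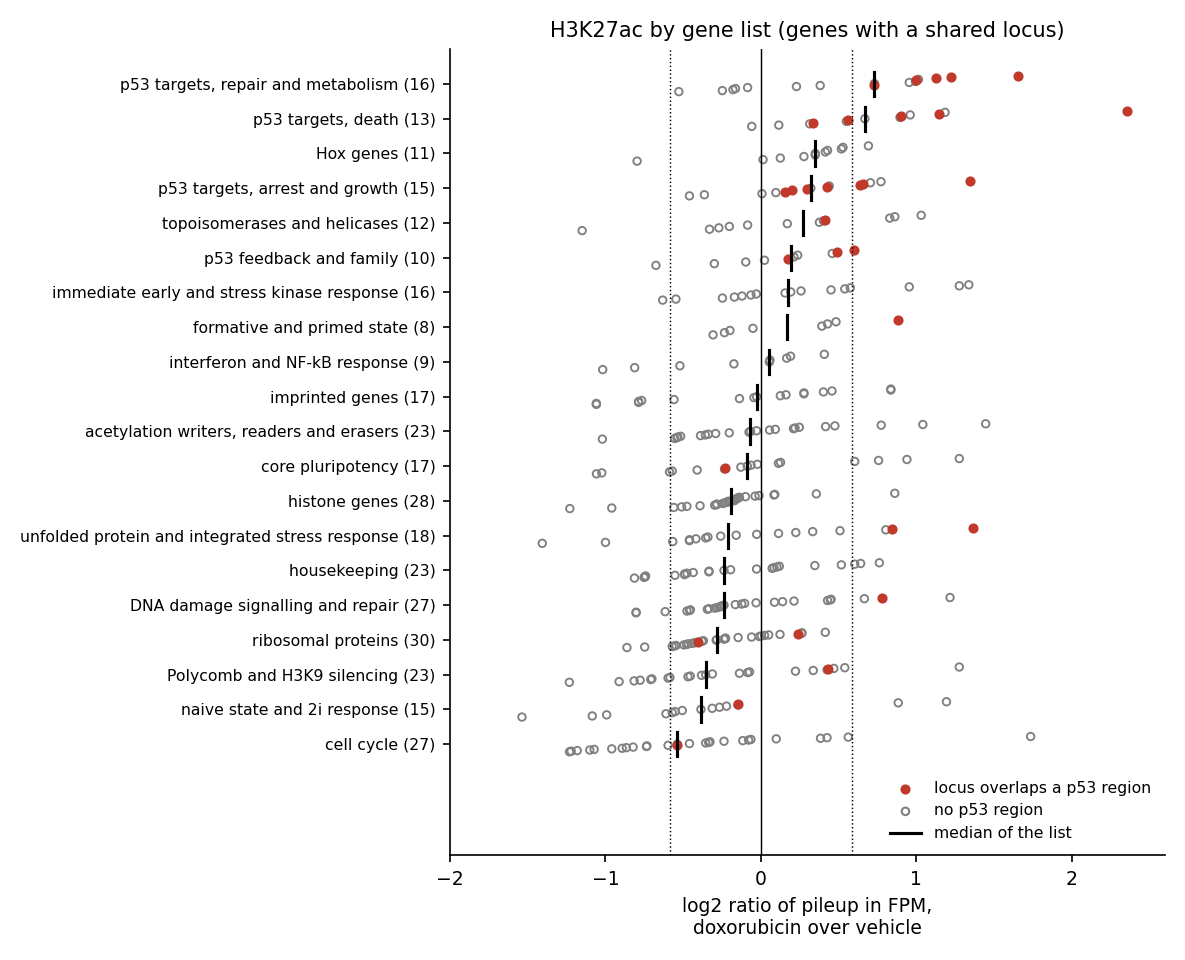
Log2 ratio of pileup in FPM, doxorubicin over vehicle (horizontal axis), at the leading locus of each gene, for the gene lists with at least 8 genes at a shared locus, whose number stands in parentheses. Filled points are genes whose locus overlaps a p53 region, black bars are list medians, and dotted lines mark 1.5-fold; the medians run from -0.54 for the cell cycle to 0.73 for p53 targets of repair and metabolism.

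Of 27 genes of damage signalling and repair outside the p53 lists, 3 were higher and 3 lower, with a median log2 ratio of -0.24. Over all genes 19.4% were higher and 11.7% lower, so the count of lower members was near the background. Rad50, part of the complex that senses double-strand breaks, had 1.79 and 4.17 FPM, a ratio of 2.33 (1.54 to 3.56), and Xrcc1 1.71 (1.13 to 2.62). Chek1, the checkpoint kinase of stalled replication, had 5.04 and 3.29 FPM, and Prkdc 4.50 and 2.58. Atm had a ratio of 0.84 (0.50 to 1.38). Among topoisomerase genes, Top2a, which encodes the main target of the drug in dividing cells, went from 3.78 to 1.70 FPM, a ratio of 0.45 (0.28 to 0.70), while Top2b had 0.726 and 1.29, a ratio of 1.78 (0.88 to 3.68) that counting error does not separate from 1. Top3b had 5.42 and 9.86 FPM, a ratio of 1.82 (1.42 to 2.33).

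Counts in the immediate early and the unfolded protein lists were near or below the background of 19.4% higher and 11.7% lower over all genes. Of 16 immediate early genes 3 were higher and 1 lower, so the members named next describe single loci. Atf3, a stress-induced repressor, had 1.11 and 2.82 FPM, a ratio of 2.53 (1.51 to 4.36), and Fosl1 0.484 and 1.17. Fos and Jun had ratios of 1.14 and 0.92 with intervals that included 1. In the list of the unfolded protein and integrated stress responses 3 of 18 were higher and 2 lower. The chaperone gene Hspa1a had 0.775 and 2.00 FPM, a ratio of 2.58 (1.38 to 5.00) with a p53 region at its locus, and Ddit3 (CHOP) 4.50 and 7.87 FPM, a ratio of 1.75 (1.33 to 2.30). Hspa5, the chief chaperone of the endoplasmic reticulum, went from 3.87 to 1.94 FPM, and Chac1 from 2.18 to 0.822. No interferon or NF-kB gene of the 9 with a shared leading locus was higher, and Irf1 was lower, with 4.02 and 2.29 FPM, as was Stat2 with 1.31 and 0.646.

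In the list of Polycomb and H3K9 silencing factors 8 of 23 were lower and 1 higher, beside 11.7% lower and 19.4% higher over all genes, with a median log2 ratio of -0.35 against 0.02. Ezh2 and Suz12, subunits of Polycomb repressive complex 2, had ratios of 0.57 (0.39 to 0.82) and 0.61 (0.43 to 0.87), whereas the third core subunit, Eed, had 1.26 (0.97 to 1.64). Ezh1, the alternative methyltransferase, was the higher gene, with 0.533 and 1.29 FPM. Cbx7 had 4.55 and 1.94 FPM, a ratio of 0.43 (0.28 to 0.64), and Uhrf1, which guides maintenance methylation of DNA, 7.07 and 3.76, a ratio of 0.53 (0.39 to 0.72). Writers, readers and erasers of acetylation had a median of -0.07, with 3 of 23 higher and 1 lower. The acetyltransferase gene Ep300 had a ratio of 0.95 (0.65 to 1.39) and Kat2b 0.49 (0.29 to 0.80). Histone genes had a median of -0.19, with 1 of 28 higher and 2 lower, and several of them share a locus.

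Of 30 ribosomal protein genes 0 were higher and 2 lower, with a median log2 ratio of -0.29. Over all genes 19.4% were higher and 11.7% lower, so the ribosomal counts were below the background in both directions. Rpl4, one of the lower genes, had 8.48 and 5.05 FPM. With the authors' fold enrichments 12 of the 30 were lower, as were 2077 of the 10498 genes with a shared leading locus. Housekeeping genes had a median of -0.24, with 3 of 23 higher and 4 lower. Actb went from 13.3 to 7.92 FPM, a ratio of 0.60 (0.48 to 0.74), and Gapdh from 7.26 to 4.34. By depth, the medians of the ribosomal, housekeeping, histone, cell cycle, naive-state and silencing lists were below that of all protein-coding genes. The same held with fold enrichments, which rest on the same pileups without a control or local background. The centred scalings shift every ratio by the same amount and so cannot change this order. The median of all these genes was itself 0.02 by depth, -0.16 with fold enrichments, -0.14 when centred on the median of shared loci and 0.06 when centred on the loci of highest level.

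Genes of other lineages carried little H3K27ac in either treatment. Of 26 matched lineage regulators 5 had a shared leading locus, 8 a region after doxorubicin only and 5 in vehicle only, none above 2 FPM. Over all protein-coding genes the shares listed in 1 treatment were 8% after doxorubicin and 3.67% in vehicle. The doxorubicin-only regions were weak, such as Gata6 at 0.763, Mesp1 at 0.763 and Cdx2 at 0.587 FPM. Of 37 Hox genes 11 had a shared leading locus, 2 a region after doxorubicin only and 7 in vehicle only. Hoxc12 and Hoxc13 shared a locus of 3.73 and 4.75 FPM. Of 25 matched genes of the state that resembles the early embryo, Zfp750 had a region in both treatments, with 2.66 and 5.40 FPM and a p53 region, 4 had weak regions after doxorubicin only, among them Tdpoz2 and Tdpoz5, and 20 had none. The fibroblast list had 6 of 20 genes listed after doxorubicin only, at 0.470 to 0.822 FPM, and 0 in vehicle only. Of its 5 genes with a shared leading locus, Mmp2 was higher, with 0.775 and 1.64 FPM and a p53 region, Fn1 and Pdgfrb were lower, with 4.75 and 2.70 and 0.969 and 0.587 FPM, and Col1a1 and Loxl1 were neither. Of 17 imprinted genes with a shared leading locus 2 were higher and 5 lower, beside 19.4% and 11.7% over all genes. Their median log2 ratio was -0.03, against 0.02 for all genes. The lower ones included Peg3 and Usp29, which share a single locus of 4.89 and 2.35 FPM.

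The 15 protein-coding genes of highest ratio were taken among loci of at least 2 FPM in 1 list. All 15 reached that level only after doxorubicin, so their values are a description of the genes chosen. A p53 region was present at 12 of them, beside 2473 of the 11884 shared loci of at least 2 FPM in 1 list. That set also holds loci away from gene ends, which could not be named. Of the 10498 protein-coding genes with a shared leading locus at any level, 698 had a p53 region there. The vehicle pileups of the 15 were 0.484 to 1.02 FPM and their ratios 4.44 to 6.87. C1rb, a complement protease gene, had 0.726 and 4.99 FPM, a ratio of 6.87 (3.94 to 12.8), and its region grew from 488 to 4002 bp. Zscan20, a zinc finger gene next to a p53 region with a fold enrichment of 369, had 1.02 and 5.52 FPM. Brms1 had 1.02 and 5.46, Btrc, which encodes a ubiquitin ligase subunit, 0.484 and 2.41, and Ptpn14, a phosphatase of the Hippo pathway, 0.63 and 2.88. Tmem150a, Krt15 and Exosc10 had no p53 region, with ratios of 6.67 (4.11 to 11.3), 5.94 (2.97 to 13.1) and 4.75 (2.55 to 9.53).

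The 15 genes with the largest losses, chosen in the same way, reached 2 FPM only in vehicle. None of the 15 had a p53 region, beside 2473 of the 11884 shared loci of at least 2 FPM in 1 list, near a gene end or not. The vehicle pileups of the 15 were 2.03 to 4.70 FPM and those after doxorubicin 0.470 to 1.58. Cldn18, a tight junction gene, had 2.13 and 0.470 FPM, 4.54-fold lower (2.11 to 11.2), and Emp1 2.03 and 0.470. Ckap2l and Cdca8, which serve the mitotic spindle and the chromosomal passenger complex, had 2.28 and 0.587 and 2.23 and 0.646 FPM. Ube2c, the ubiquitin-conjugating enzyme of the anaphase-promoting complex, had 4.07 and 1.35 FPM, 3.01-fold lower (1.88 to 5.01). Zbtb24, a zinc finger gene needed for DNA methylation at centromeric repeats, had 4.70 and 1.41, and Calr, a chaperone of the endoplasmic reticulum, 4.07 and 1.41. The list also held Lima1, Kcnk5, Myh14, Lrmp, Zfp704, Slfn8, Slc15a1 and Gm35315.

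The genes with the highest vehicle pileup were chosen on the value that divides the ratio, which favours low ratios among them. Of 10 named genes 0 were higher and 2 lower, Actb and H4f16, the latter from 12.98 to 4.87 FPM, 2.66-fold lower (2.08 to 3.45). The loci beside Wls, 4930467E23Rik, 9030025P20Rik and Gm3435 overlapped regions of the input, to which no antibody was added. When loci with an input region were left out, the 10 had a median log2 ratio of -0.18 and included Sirt4, Dido1, Cd9, Sp1 and Nfe2l2. Dido1 had 14.5 and 16.5 FPM, a ratio of 1.14 (0.96 to 1.34). Cd9, a surface tetraspanin of stem cells, had 13.6 and 9.69 FPM. Its locus held 1 region of 31757 bp in vehicle and 5 regions that summed to 28587 bp after doxorubicin.

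The 10 loci with the largest gains in length measured 318 to 3726 bp in vehicle, beside a median of 880 bp over all shared loci. Some of them, such as those of Scrib and Ndufaf8, lay in 2 regions in vehicle and in 1 after doxorubicin. Scrib, a polarity gene with a p53 region, went from 1782 to 10076 bp while its pileup went from 1.02 to 3.52 FPM. Gps1 went from 954 to 8973 bp, Strn4 from 736 to 6766 bp and Atxn2 from 318 to 6496 bp. Of these 10 genes 9 were also higher in pileup, the exception being Ndufaf8 with a ratio of 1.21. Among the 9, the interval of Atxn2 (0.94 to 4.53) included 1. Of all 11760 loci at least 1.5-fold longer 6813 were also higher, and length and pileup come from the same fragments. The 10 largest losses were beside Usp7, Mylpf, Dpys, Tet1, Inpp5j, Kat2b, Opa1, Tfcp2l1, Atf1 and Tlnrd1. Lengths are sums over regions, and each of these 10 loci lay in more regions after doxorubicin than in vehicle. Tfcp2l1 went from 15317 bp in 2 regions to 11026 bp in 5. Tet1, the DNA dioxygenase gene, went from 26403 bp in 1 region to 21788 bp in 5. Tet1 lost summed length but not height, with 7.80 and 10.5 FPM, a ratio of 1.35 (1.08 to 1.68) and a p53 region. Kat2b went from 9994 bp in 1 region to 5496 bp in 8. Usp7, a deubiquitinase of Mdm2, went from 36636 bp in 1 region to 30432 bp in 12.

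The strongest genes listed in 1 treatment only were near 2 FPM. Ano3 had a doxorubicin-only region of 2.58 FPM with a p53 fold enrichment of 22.8, and Nudt18 one of 2.52 without a p53 region. On the vehicle side the strongest were Eif4enif1, Gcat, Zbtb14, Cep43 and Fxr1.

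Promoter sequence was set beside the ratios. Of 32851 annotated starts in the RefSeq table, 8811 lay in a shared locus. A full p53 site in the 250 bases before the start was found in 0.271% of all promoters, 0.533% of those in a shared locus, 21 of 1335 (1.57%) in a higher locus and 0 of 1132 in a lower locus. Among 539 promoters whose locus has a p53 region 4.08% held one. The CCAAT box, searched on both strands, was found in 38.3% of lower, 31.8% of higher and 34.5% of all promoters in shared loci. TGANTCA, a core bound by AP-1 factors, was found in 5.92% of higher and 3.27% of lower promoters, against 4.62% of those in shared loci. GGGCGG, bound by Sp factors, was in 45.4% of higher and 48.7% of lower promoters, CACGTG, an E-box, in 7.87% and 7.42%, and TTTGAA in 11.2% and 11.7%. In 5 groups of promoters by GC content, the median log2 ratio was -0.07, 0.0043, -0.025, -0.024 and -0.0064 from lowest to highest.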

How the data were processed

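H3K27ac was analysed from 1 peak list per treatment, each from 2 pooled libraries, and p53, untagged HA, input and H3K9me3 lists were used beside them. Per the submitters' processing notes, reads were mapped to mm10 with Bowtie2 2.2.6. Per the file headers, the reference also held an extra contig, MACS 2.2.5 called the peaks from paired fragments at a q of 0.05 while keeping 1 fragment at a position, and the histone lists used neither a control nor a local background. The deposited signal, per the file headers, is the fragment pileup at each summit, which was not scaled in the histone lists. The deposited fold enrichment is a ratio of pileup to background, and q values were deposited as −log10. A fold of pileups between lists pooled before deposit carries no estimate of the variation between libraries, so its full precision is unknown. The fold intervals cover the counting of fragments only, at depths of 20647895 fragments in vehicle and 17036528 after doxorubicin. Intervals of medians and shares treat loci as independent and hold no variation between libraries either.

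Pileups were divided by the fragments after filtering. Regions overlapping by 1 bp formed loci, and p53 regions that overlap an untagged region were left out. Genes came from RefSeq on GRCm38.p6, without strand, and 8 of 538 listed genes were unmatched. Values of some list members are not reported here. Named genes were list members, the 15 highest and 15 lowest ratios at 2 fragments per 1000000 or more, the 10 highest vehicle levels and the 10 largest gains and losses of length, at the nearest protein-coding gene end. The members and lists were chosen with earlier results of these data known. Alternatives covered scaling, overlap, −log10 q, merging, sex chromosomes, input, fold, level, gene window and p53 enrichment. Python 3.11.15, numpy 2.4.6, pandas 2.3.3, scipy 1.17.1 and matplotlib 3.10.9 were used. Overlaps were checked against bedtools 2.31.1, with 0 differing over 82177 simulated regions, and of 100 loci planted 3-fold higher and 100 planted lower all were called in the simulated H3K27ac lists.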

Additional observations from a re-analysis of the deposited data

How the results depend on the processing

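No paired analysis was possible because the libraries of a treatment were pooled before peaks were called, which also prevents leaving out a replicate. Of the values recomputed under another setting, 91 stayed within the spread set for them, 35 moved by more and 6 changed sign, the latter all medians. With ratios of fold enrichments, the median log2 ratio of shared loci was -0.023, with 9047 higher and 8740 lower, the median was 0.79 at p53 regions and -0.068 at the other loci, and 14 p53 target genes were higher. Centred on the median of shared loci, these medians were 0, 0.85 and -0.050, with 8917 loci lower. Centred on the 1000 loci of highest level, they were 0.20, 1.05 and 0.15. With a −log10 q minimum of 5, they were 0.11, 0.91 and 0.043, the median log2 length ratio was -0.053, 6583 loci were higher and 3290 lower, and 21542 were listed after doxorubicin only and 12729 in vehicle only. With regions merged within 1000 bp, the medians were 0.17, 0.98 and 0.10, the log2 length ratio was 0.025 and 14938 loci were in vehicle only. At 2 FPM or more in 1 list, the medians were 0.066, 1.06 and -0.14, the log2 length ratio was -0.047, 3780 loci were higher and 2144 lower, 108 and 33 were in 1 list only, and X lay -0.53 from the autosomes in place of -0.35. With a fold of 2, 5936 loci were higher and 1318 lower, 9 p53 target genes were higher and 5 cell cycle genes lower. With p53 regions of at least 10-fold enrichment, the medians were 1.09 at p53 regions and 0.14 elsewhere. Fewer loci or genes enter the stricter settings by construction, and for the others the cause was not tested. The X comparison was chosen after seeing the data. A low pileup limits single loci: near the lowest listed, 9 and 8 fragments, 1 fragment moves a ratio visibly.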
